A study of Mus musculus with 8 samples.

Results

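The transcription factors that carry an uncommitted thymic progenitor into the T lineage were examined in mouse T cell leukemias that lack E2a, with and without Cre-mediated loss of Lef1. The 9 genes Bcl11b, Gata3, Gfi1, Ikzf1, Ikzf2, Ikzf3, Ets1, Myb and Spi1 were taken by gene symbol, and all 22 probe sets that the platform annotation assigns to 1 of them were included, out of 45037 probe sets covering 18193 genes. Bcl11b and Ets1 were each measured by 4 probe sets, Ikzf2, Ikzf3 and Myb by 3 each, Ikzf1 by 2, and Gata3, Gfi1 and Spi1 by 1 each.

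Groups were formed by leukemia line and retrovirus, with 2 arrays in each of 4 groups. The Lef1F/F line was E2a-/- with loxP sites around the DNA binding domain of both Lef1 alleles, and received MigR1-Cre, which produces Cre and GFP, or MigR1, which produces GFP alone. The E2a-/- line received the same vectors, and its Lef1 alleles were not floxed. Both lines lacked E2a, came from the FVB/NJ strain, were grown from thymic cells of sick mice, and were sorted as GFP+ cells 72 hours after infection. Each genotype was represented by 1 leukemia line, so that genotype and line cannot be told apart, and the labels do not say whether the 2 arrays of a group came from separate cultures. Spread between arrays may therefore be technical.

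T lineage commitment proceeds as Notch signals in the thymus switch on factors such as Gata3 and Bcl11b while progenitor and myeloid factors such as Spi1, which encodes PU.1, are shut down. Bcl11b is needed to complete commitment and to hold cells in the T lineage. Lef1 and the related Tcf7 product TCF1 are HMG box factors that bind a shared DNA motif and act in the same cells, and E2A proteins bind E boxes and normally support this program.

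Promoter sequences were available for 5 of the 9 genes, Bcl11b, Gata3, Gfi1, Ikzf1 and Myb, as 7 windows of 250 bases before and 30 bases after a RefSeq start on build GRCm38.p6, with 2 starts each for Gfi1 and Ikzf1. The TCF/LEF motif, CTTTG followed by 2 bases that are each A or T, was searched on both strands. Each of 3 windows held 1 match, against 16.1% of the 32851 windows of all genes that held at least 1. These windows are shown because they hold the letters that Lef1 is known to bind, which are in capitals.
Bcl11b: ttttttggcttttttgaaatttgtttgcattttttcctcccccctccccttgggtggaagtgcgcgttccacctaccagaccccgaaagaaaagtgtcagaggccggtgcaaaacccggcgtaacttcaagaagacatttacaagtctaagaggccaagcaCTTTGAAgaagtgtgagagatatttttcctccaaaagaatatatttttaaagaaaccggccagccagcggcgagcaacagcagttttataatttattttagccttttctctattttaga
Myb: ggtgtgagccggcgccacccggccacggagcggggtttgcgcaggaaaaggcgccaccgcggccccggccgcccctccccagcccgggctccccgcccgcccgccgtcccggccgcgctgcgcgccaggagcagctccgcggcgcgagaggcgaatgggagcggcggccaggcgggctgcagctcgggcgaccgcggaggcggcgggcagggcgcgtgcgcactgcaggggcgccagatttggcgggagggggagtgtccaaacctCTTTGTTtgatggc
Ikzf1 second start: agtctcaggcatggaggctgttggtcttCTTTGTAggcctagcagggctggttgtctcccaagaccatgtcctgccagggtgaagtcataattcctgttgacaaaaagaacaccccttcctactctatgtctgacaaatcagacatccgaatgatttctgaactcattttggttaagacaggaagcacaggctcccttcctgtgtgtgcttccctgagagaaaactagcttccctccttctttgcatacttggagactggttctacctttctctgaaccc
The Bcl11b window lies on the minus strand at chr12:108003385-108003664, the Myb window on the minus strand at chr10:21160955-21161234, and the Ikzf1 window on the plus strand at chr11:11689927-11690206. The match began 89 bases before the start in Bcl11b and 222 bases before it in Ikzf1, and at base 17 counted from the start in Myb. The windows of Gata3 and Gfi1 and the first start of Ikzf1 held none of these letters. An E box, CANNTG, was found in the Gata3 window and in both Gfi1 windows, 3 of 7, and in 70.1% of all windows. A match is a run of letters only, and binding was not measured here.

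The brightest Lef1 probe set read 1903 and 1678 after MigR1-Cre, against 6918 and 6126 after MigR1, in the Lef1F/F line, and 3008 and 3416 against 3288 and 3337 in the E2a-/- line. With Cre its log2 difference was -1.87 in the floxed line (adjusted p = 0.000703) and -0.05 in the other (adjusted p = 1.00), and these effects differed by -1.82 (adjusted p = 0.0184, limma). Whether the probe set lies in the deleted part is not given. Of 23 measured T identity genes, 17 averaged over 2 times the median of the table, with group medians of 836 to 1029 units. Cd3g, Cd3d and Cd3e, which encode parts of the T cell receptor complex, averaged 6041, 8979 and 897 units, as T lineage cells do. Of 18 myeloid genes 1, Irf8, was that bright, and the summed intensity of the list was 1899 to 1996 after MigR1-Cre and 1812 to 1882 after MigR1 in the Lef1F/F line, and 1950 to 1986 against 1954 to 2030 in the E2a-/- line. Mpo, Elane, Lyz2 and Itgam, which define myeloid cells, averaged 70.5, 68.1, 92.3 and 61.6 units, near the array medians of 88.9 to 91.0.

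To determine whether these factors depended on Lef1, MigR1-Cre was compared with MigR1 in the Lef1F/F line. No member passed the test. None of the 22 probe sets passed the adjusted p threshold of 0.05, against 75 of all 45037, or 0.167%. The range of log2 differences was -0.40 to 0.30, and the smallest adjusted p was 0.755. Without adjustment, 6 of 22 probe sets had a p below the threshold, against 2100 of all 45037, which is a smaller share. These 6 belonged to Ikzf2, Myb, Bcl11b and Gfi1, with more than 1 each for Ikzf2 and Myb. Taking the brightest probe set per gene, the median size of the difference was 0.13 on the log2 scale, against 0.05 over all probe sets. The 95% intervals at these 9 probe sets, each taken alone, lay within 1.3-fold of no difference for 7 genes, and reached 1.51-fold for Ikzf2 and 1.49-fold for Gata3. In the E2a-/- line, where Cre met no loxP sites in Lef1, none of 22 probe sets and 0 of 45037 passed, or 0%, with 0 of the 22 and 836 of all probe sets below the threshold before adjustment, and the members ranged between -0.17 and 0.15. The difference of the Cre effects between the lines passed for none of 22 probe sets, against 9 of 45037, or 0.0200%. In the Lef1F/F line the Cre and MigR1 arrays did not overlap for 8 higher and 3 lower member probe sets, against 29.1% of all. In the E2a-/- line they did not overlap for 5 higher and 1 lower, against 31.4% of all. With 2 arrays a group, such separation is common.

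**Figure D1:**
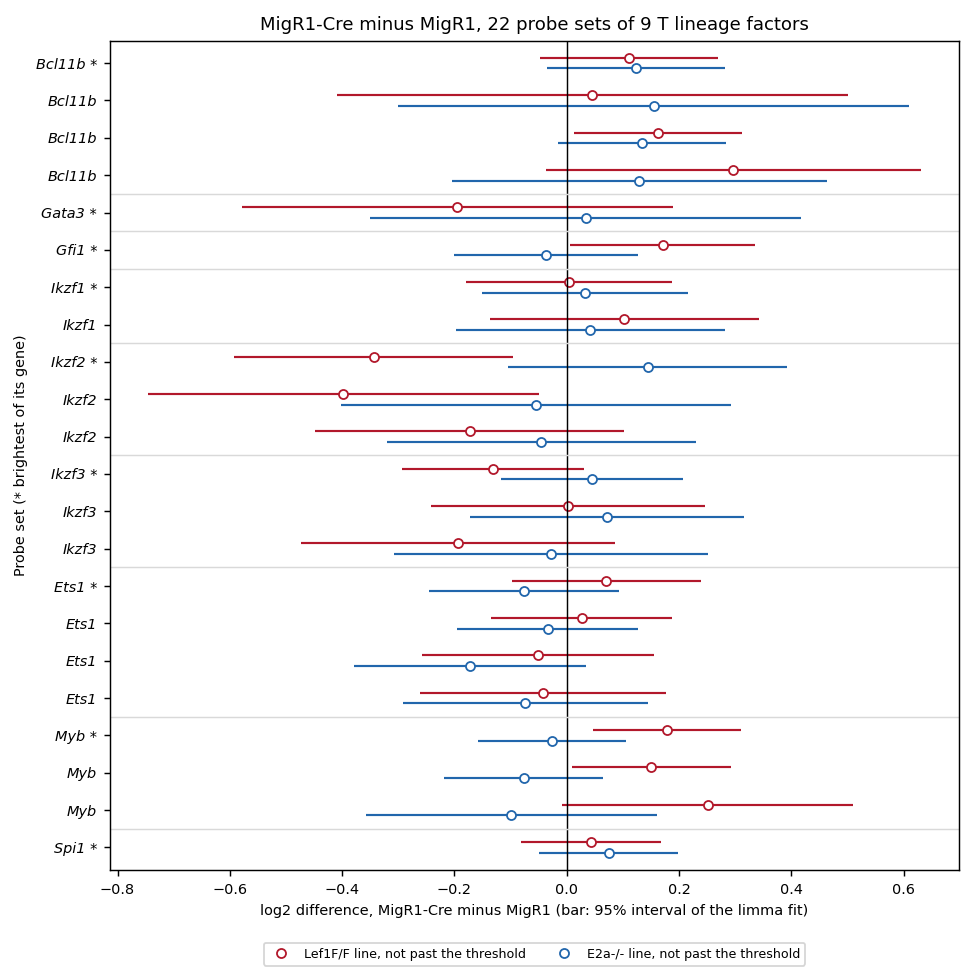
The log2 difference of MigR1-Cre minus MigR1 for each of the 22 probe sets, in the Lef1F/F line (red, upper point of each pair) and the E2a-/- line (blue), with 95% intervals from the limma fit. All points are open because none passed the threshold, and the red points of the 2 brighter Ikzf2 probe sets lie furthest to the left, at -0.34 and -0.40.

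Ikzf2, which encodes Helios, an Ikaros family factor of immature and regulatory T cells, had the most negative differences with Cre. Its brightest probe set read 1913 and 1639 after MigR1-Cre, against 2345 and 2155 after MigR1, in the Lef1F/F line, and 1347 and 1322 against 1327 and 1098 in the E2a-/- line. Both Cre arrays of the Lef1F/F line were below both MigR1 arrays, whereas the groups of the E2a-/- line overlapped. The log2 difference was -0.34 ± 0.11 (SE) in the Lef1F/F line (95% interval -0.59 to -0.10, adjusted p = 0.755) and 0.14 ± 0.11 in the E2a-/- line (adjusted p = 1.00). The difference of these effects, -0.49 ± 0.15 (interval -0.84 to -0.14), had a p of 0.0126 in the limma fit before adjustment and 1.00 after it. A second, dimmer probe set gave 252 and 191 after MigR1-Cre, against 321 and 260 after MigR1, in the Lef1F/F line, a log2 difference of -0.40 ± 0.15 (adjusted p = 0.985). The 2 Lef1F/F arrays of a vector were 0.40 apart after MigR1-Cre and 0.31 after MigR1, in the same direction. With record order of the Lef1F/F arrays added to the limma fit as a block, its SE was 0.08 (adjusted p = 0.0452). The brightest probe set then had an adjusted p of 0.119, and the difference of Cre effects passed for no Ikzf2 probe set. The labels do not pair the arrays, so the call rests on an assumed pairing. The third probe set, at 63.4 to 92.0 units, lay near the array medians.

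Myb, which encodes a factor needed for immature thymocyte survival and for T cell receptor gene rearrangement, had small positive differences with Cre in the Lef1F/F line that did not pass. Its brightest probe set gave 10708 and 10432 after MigR1-Cre, against 9369 and 9309 after MigR1, in the Lef1F/F line, and 7885 and 7567 against 7979 and 7762 in the E2a-/- line. Both Cre arrays exceeded both MigR1 arrays in the Lef1F/F line and overlapped with them in the E2a-/- line. The log2 difference was 0.18 ± 0.06 in the Lef1F/F line (interval 0.05 to 0.31, adjusted p = 0.779) and -0.03 ± 0.06 in the E2a-/- line (adjusted p = 1.00). The other Myb probe sets had log2 differences of 0.15 ± 0.06 and 0.25 ± 0.11 in the Lef1F/F line and -0.08 and -0.10 in the E2a-/- line. Every Myb probe set carried a name mark for several transcripts or for possible cross-hybridisation.

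Bcl11b encodes the zinc finger repressor that closes the commitment step. Its brightest probe set read 5649 and 5284 after MigR1-Cre, against 4917 and 5202 after MigR1, in the Lef1F/F line, and 4170 and 4443 against 4053 and 3850 in the E2a-/- line. The Cre arrays were above the MigR1 arrays in both lines. The log2 differences were 0.11 ± 0.07 in the Lef1F/F line and 0.12 ± 0.07 in the E2a-/- line (adjusted p = 1.00 for both), and across its 4 probe sets the differences were 0.05 to 0.30 and 0.12 to 0.15. The difference of the effects between the lines was -0.01 with an interval of -0.24 to 0.21.

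Gata3, a zinc finger factor required from the earliest T cell steps, showed more spread between arrays of a group than between vectors. It read 1445 and 998 after MigR1-Cre, against 1523 and 1240 after MigR1, in the Lef1F/F line, and 1131 and 1017 against 1049.8 and 1045 in the E2a-/- line. The groups of the Lef1F/F line overlapped. The log2 difference was -0.19 ± 0.17 (interval -0.58 to 0.19, adjusted p = 1.00) in the Lef1F/F line and 0.03 ± 0.17 in the E2a-/- line. The interval reached 1.49-fold lower.

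Gfi1 encodes a zinc finger repressor that restrains Id and cytokine signaling genes in early thymocytes. It read 1343 and 1466 after MigR1-Cre, against 1211 and 1283 after MigR1, in the Lef1F/F line, and 1006 and 1061 against 1031 and 1090.1 in the E2a-/- line. Both Cre arrays were the higher in the Lef1F/F line, at 0.17 ± 0.07 on the log2 scale (adjusted p = 1.00), and the E2a-/- groups overlapped, at -0.04 ± 0.07.

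Ikzf1, encoding Ikaros, the founding lymphoid member of the family, varied little. It read 3194 and 3476 after MigR1-Cre, against 3129.8 and 3524 after MigR1, in the Lef1F/F line, and 3454 and 3217 against 3284 and 3235 in the E2a-/- line. All groups overlapped, and the 8 arrays spanned 1.13-fold. The log2 differences were 0.00 ± 0.08 and 0.03 ± 0.08 (interval -0.18 to 0.19 in the Lef1F/F line). The other probe set of Ikzf1 was at 100.6 to 127 units.

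Ikzf3, encoding Aiolos, an Ikaros relative of more mature lymphocytes, read 569 and 569 after MigR1-Cre, against 591 and 658 after MigR1, in the Lef1F/F line, and 802 and 839 against 814 and 776 in the E2a-/- line. The Cre arrays were the lower in the Lef1F/F line, at -0.13 ± 0.07 on the log2 scale (adjusted p = 1.00), and the E2a-/- groups overlapped, at 0.04 ± 0.07. Its other probe sets had log2 differences of 0.00 and -0.19 in the Lef1F/F line.

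Ets1, an ETS factor that supports thymocyte survival and T cell gene expression, read 7641 and 8664 after MigR1-Cre, against 7535 and 7969 after MigR1, in the Lef1F/F line, and 6043 and 6105 against 6353 and 6450.1 in the E2a-/- line. The Lef1F/F groups overlapped, with a log2 difference of 0.07 ± 0.07, and the Cre arrays of the E2a-/- line were the lower, at -0.08 ± 0.07. Across its 4 probe sets the Lef1F/F differences were -0.05 to 0.07.

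Spi1, whose product PU.1 is turned off as progenitors commit to the T lineage, lay near the array medians. It read 100.2 and 99.6 after MigR1-Cre, against 97.3 and 96.5 after MigR1, in the Lef1F/F line, and 98.2 and 96.8 against 92.5 and 92.6 in the E2a-/- line. These values sat at 1.07 times the median of the table, and RMA compresses differences at such intensities. Both Cre arrays were above both MigR1 arrays in each line, by log2 differences of 0.04 ± 0.05 and 0.07 ± 0.05.

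**Figure D2:**
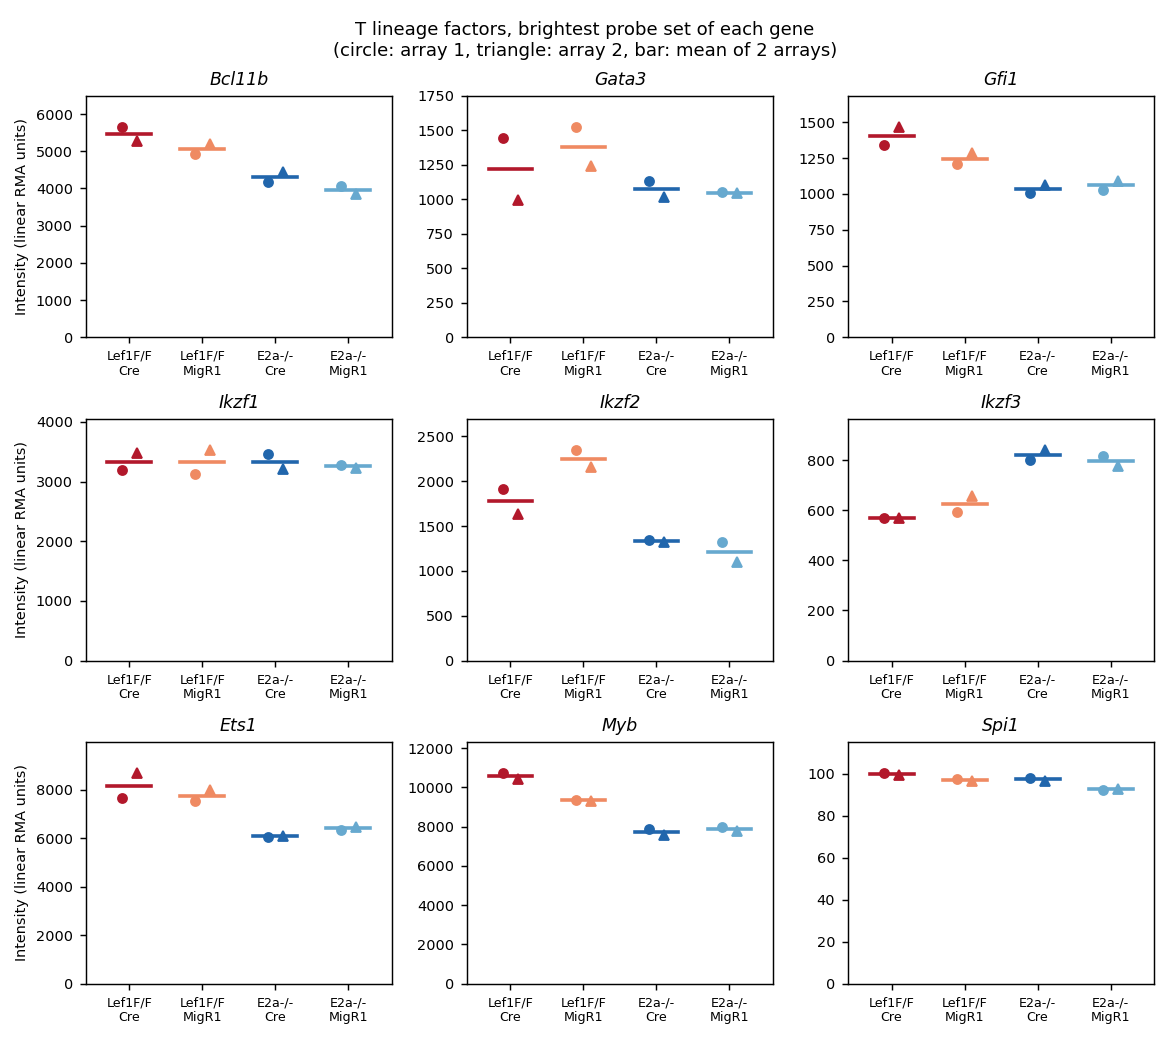
The linear RMA intensity of the brightest probe set of each gene in the 8 arrays, with Lef1F/F MigR1-Cre, Lef1F/F MigR1, E2a-/- MigR1-Cre and E2a-/- MigR1 from left to right; circles are array 1, triangles array 2 and bars the mean of 2 arrays. Ikzf2 separates the lines most, at 1639 to 2345 against 1098 to 1347, Ikzf3 lies lower in the Lef1F/F line, and Ikzf1 spans only 1.13-fold.

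The 2 arrays of a Lef1F/F group were less alike than arrays of the same record number under different vectors. Arrays of the same record number correlated at r = 0.9975 over log2 values, against 0.9943 and 0.9945 between the 2 arrays of a vector over all probe sets, whereas in the E2a-/- line the 2 arrays of a vector correlated at 0.9981 and 0.9976. For Gata3, array 1 exceeded array 2 by 0.53 on the log2 scale after MigR1-Cre and by 0.30 after MigR1, and a Bcl11b probe set did so by 0.55 and 0.51, at 4555 and 3114 after MigR1-Cre, against 4351 and 3062 after MigR1. The gap had the same sign under both vectors for 17 of 22 member probe sets in the Lef1F/F line, against 63.2% of all probe sets, and for 12 of 22 in the E2a-/- line, against 48.0%. Across the 22 probe sets the gaps under the 2 vectors correlated at r = 0.85 in the Lef1F/F line and 0.04 in the E2a-/- line, against 0.70 and -0.03 over all 45037 probe sets, as a description over probe sets that share arrays and, within a gene, transcripts. The labels do not number the arrays within a group, and the source of the gap was not tested.

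**Figure D3:**
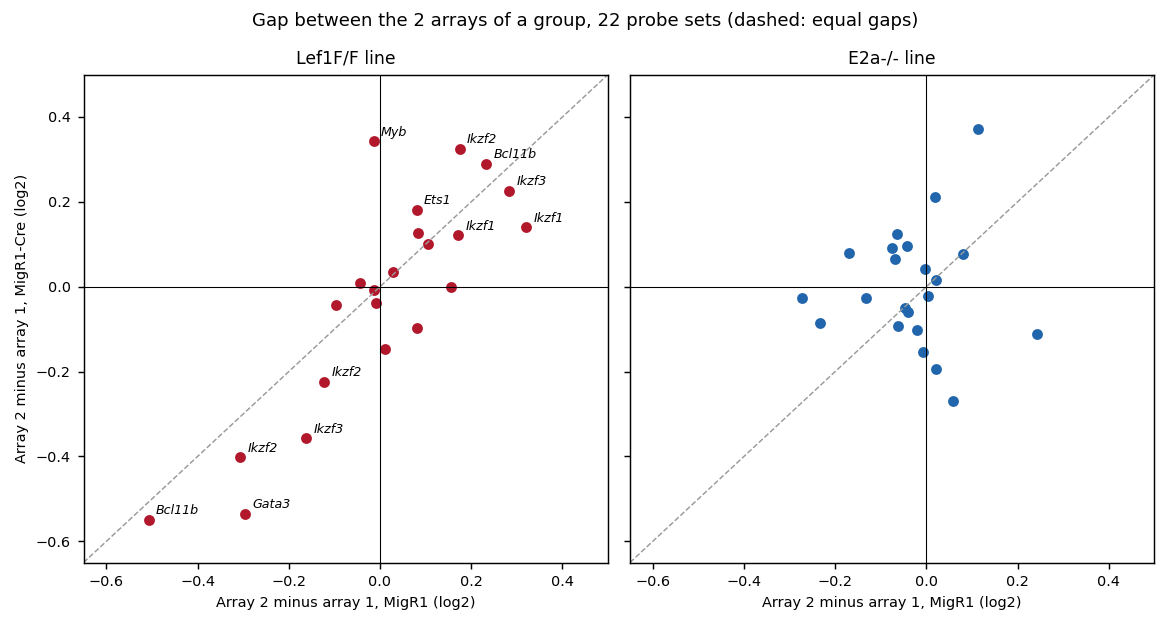
The log2 gap of array 2 minus array 1 in record order after MigR1 (horizontal) and after MigR1-Cre (vertical), for 22 probe sets of the 9 genes, in the Lef1F/F line (left) and the E2a-/- line (right); the dashed line marks equal gaps. In the Lef1F/F line Gata3 and a Bcl11b probe set lie far down the diagonal, whereas the E2a-/- points scatter around 0.

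The clearest differences among these factors were between the leukemia lines. Over all 8 arrays, Bcl11b, Gfi1, Ikzf2, Ets1 and Myb were higher and Ikzf3 lower in the Lef1F/F line than in the E2a-/- line, by 1.26 to 1.57-fold at the brightest probe sets of the higher genes. Of the 22 probe sets, 12 passed the threshold, 10 higher and 2 lower, against 9219 of 45037, or 20.5%. The arrays of the lines did not overlap for 12 probe sets, 9 higher and 3 lower, against 25.0% of all probe sets. Most of these genes were bright at their brightest probe set, of which that of Ikzf3 was the dimmest apart from Spi1. Among the 5498 probe sets at least as bright as that one, 41.5% passed. Several of the 22 member probe sets are dimmer than it, so this share and the count of 12 cover unlike sets. The lines thus differed broadly, and the members were not tested against other bright genes. The comparison in MigR1 arrays alone, which shares its arrays with the one above, passed for 8 of 22 probe sets, 6 higher and 2 lower, against 4829 of 45037, or 10.7%.

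**Figure D4:**
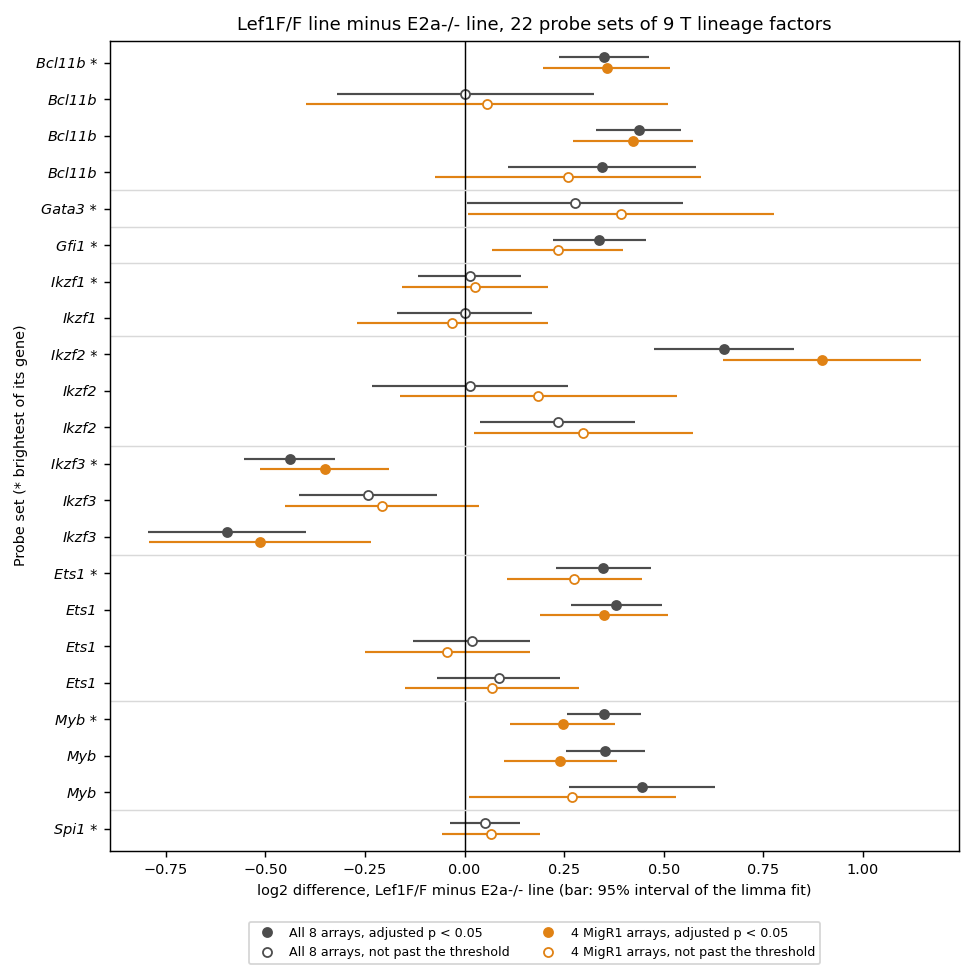
The log2 difference of the Lef1F/F line minus the E2a-/- line for each of the 22 probe sets, over all 8 arrays (grey, upper point) and in the 4 MigR1 arrays (orange), with 95% intervals from the limma fit; filled points passed the adjusted p threshold of 0.05. Ikzf2 reaches 0.65 and 0.90, the Ikzf3 points lie left of 0, and both Ikzf1 probe sets lie at 0.

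Ikzf2 had the largest line difference among the brightest probe sets. The log2 difference over all arrays was 0.65 ± 0.08 (SE, limma adjusted p = 0.000563), a fold of 1.57. It was 0.41 ± 0.11 in the MigR1-Cre arrays (adjusted p = 0.0463) and 0.90 ± 0.11 in the MigR1 arrays (adjusted p = 0.00120). The gap between these is the same quantity as the difference of the Cre effects above, which did not pass. The 2 dimmer Ikzf2 probe sets had line differences of 0.01 ± 0.11 and 0.23 ± 0.08, neither past the threshold (adjusted p = 0.959 and 0.0962), and 1 probe set carries the call. As the mean of its 3 probe sets, Ikzf2 differed by 0.30 over all arrays (adjusted p = 0.00500) and by 0.46 in MigR1 arrays (adjusted p = 0.00598), and by the same mean over all arrays Ikzf3 at -0.43, Myb at 0.38 and Gfi1 at 0.34 differed by more.

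Ikzf3 was lower in the Lef1F/F line at 2 of 3 probe sets, and the third had no overlap between the lines but did not pass, with log2 differences of -0.44 ± 0.05 (adjusted p = 0.000472), -0.60 ± 0.09 (adjusted p = 0.00171, at intensities of 57.9 to 114) and -0.24 ± 0.07 (adjusted p = 0.0559). Ikzf1 averaged 3335 and 3327 units in the Lef1F/F groups with MigR1-Cre and MigR1, against 3336 and 3259 in the E2a-/- groups, and its line difference was 0.01 ± 0.06 with an interval of -0.12 to 0.14.

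Bcl11b was higher in the Lef1F/F line at 3 of 4 probe sets. The brightest averaged 5467 ± 258 units after MigR1-Cre and 5059 ± 202 after MigR1 in the Lef1F/F line, against 4306 ± 193 and 3952 ± 144 in the E2a-/- line (SD, n = 2 each). The log2 difference was 0.35 ± 0.05 (adjusted p = 0.00142), and those of the other 2 called probe sets were 0.44 ± 0.05 and 0.34 ± 0.10. The last of these only just passed (limma adjusted p = 0.0487), and its arrays overlapped between the lines. In MigR1 arrays it did not pass (adjusted p = 0.365). The remaining probe set, in which the Lef1F/F arrays were most divided, gave 0.00 ± 0.14.

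Myb, Ets1 and Gfi1 had line differences of like size over all 8 arrays. All 3 Myb probe sets were higher in the Lef1F/F line, by 0.35 ± 0.04 (adjusted p = 0.000528), 0.35 ± 0.04 and 0.45 ± 0.08 on the log2 scale. The 2 bright Ets1 probe sets were higher by 0.35 ± 0.05 (adjusted p = 0.00204) and 0.38 ± 0.05, and the 2 dimmer ones, at 536 to 810 units, differed by 0.02 and 0.09 and did not pass. The mean of the 4 Ets1 probe sets differed by 0.21 (adjusted p = 0.00936). Gfi1 averaged 1405 and 1247 units in the Lef1F/F line, against 1033 and 1060.4 in the E2a-/- line, for a log2 difference of 0.34 ± 0.05 (adjusted p = 0.00208). At the brightest probe sets, Myb, Ets1 and Gfi1 differed by 0.25 ± 0.06, 0.28 ± 0.07 and 0.23 ± 0.07 in the MigR1 arrays. In the MigR1-Cre arrays they differed by 0.45 ± 0.06, 0.42 ± 0.07 and 0.44 ± 0.07. Gfi1 and Ets1 did not pass in the MigR1 arrays (limma adjusted p = 0.0836 and 0.0510).

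Gata3 and Spi1 did not pass. Gata3 averaged 1221 ± 316 units after MigR1-Cre and 1381 ± 200 after MigR1 in the Lef1F/F line, against 1074 ± 81 and 1047 ± 3.5 in the E2a-/- line (SD, n = 2 each), with a log2 difference of 0.28 ± 0.12 (adjusted p = 0.155). Without array 2 of the Lef1F/F MigR1-Cre group, its difference was 0.41 (adjusted p = 0.0114). Spi1 differed by 0.05 ± 0.04 (adjusted p = 0.457). Among the arrays with MigR1 alone, the calls of Bcl11b, Ikzf3 and Myb at the brightest probe set were lost when some arrays were left out, as were others among the 8 probe sets. Without array 1 or 2 of the E2a-/- MigR1 group 2 and 1 member probe sets passed, and without array 1 or 2 of the Lef1F/F MigR1 group 5 and 3. Of all 45037 probe sets, 2267, 2321, 5062 and 3062 passed in these 4 fits. Without array 1 of the E2a-/- MigR1 group the adjusted p was 0.0609 for Bcl11b, 0.130 for Ikzf3 and 0.119 for Myb, and without array 2 it was 0.114, 0.0702 and 0.179. Without array 1 of the Lef1F/F MigR1 group it was 0.0643 for Ikzf3 and 0.0868 for Myb, and without array 2 it was 0.0816 for Bcl11b and 0.114 for Myb. Conversely, Gata3 and Ets1 came under the threshold among the MigR1 arrays when a Lef1F/F MigR1-Cre array was left out of the fit. With all arrays their adjusted p was 0.218 and 0.0510. Leaving out either array gives the same fit for this contrast. It changes only the pooled spread, so the log2 differences stayed at 0.39 and 0.28. The cause of the lost calls above was not tested.

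Of 13 measured close relatives of the members, 1 passed the test with Cre in the Lef1F/F line, against 0.167% of all probe sets. It was Spib, an ETS factor related to Spi1, with a log2 difference of 0.99 ± 0.12 (limma adjusted p = 0.0245). In the E2a-/- line 0 passed. Over all arrays, the ETS factors Fli1 and Ets2 were higher in the Lef1F/F line than in the E2a-/- line. Their log2 differences were 0.65 ± 0.07 and 0.47 ± 0.06, and Gata1, at 102.5 units, was lower, at -0.29 ± 0.04. These values average the MigR1 arrays with the MigR1-Cre arrays. In the MigR1 arrays alone, 1 of the 13 relatives was higher and 2 were lower. Among 31 other T lineage factors, 4 fell with Cre in the Lef1F/F line, against the same 0.167% of all probe sets, and none rose. These were Lef1, the deleted gene itself, Id3, Rora and Egr1, with log2 differences of -1.87, -1.23, -0.70 and -0.69. Both lists were chosen with earlier results of these data known, so their shares are not a test. When single arrays were left out, which leaves 1 array in a group, the calls of Spib, Rora and Egr1 were mostly lost. Those of Lef1 and Id3 stayed. Leaving out either array of an E2a-/- group gives the same fit for this contrast, so these fits are not all separate. With only the 4 arrays compared in the fit, none of these 5 genes passed. The median over that list was 0.01, against 0.00 over all probe sets.

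Between the lines, over all arrays, 14 of the 31 other T lineage factors were higher in the Lef1F/F line and 3 lower. In the MigR1 arrays alone, 11 were higher and 3 lower. The other line values in this paragraph are over all arrays. Of these 31, 23 averaged over 2 times the median of the table. For this list and the next, 20.5% of all probe sets passed, and 41.5% of the 5498 bright ones described above. The lists were not tested against other bright genes. Id3, which blocks E proteins, was higher by 2.48 ± 0.07 on the log2 scale, Tox by 1.65 ± 0.04 and Hes1, a Notch target, by 1.35 ± 0.04, whereas Rora, Id2 and the chromatin organiser Satb1 were lower, at -1.24, -0.73 and -0.45. Of 23 T identity genes, 11 were higher and 4 lower, with Rag2 and Cd27 among the higher at 1.58 and 1.12 and Cd8a and Il7r among the lower at -3.00 and -1.71, and none passed with Cre in either line. The median over the list was 0.17, against -0.01 over all probe sets.

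Genes of other lineages were mostly near the array medians. With Cre, 0 of the 16 progenitor, 18 myeloid, 11 B cell, 10 NK and innate lymphoid, 7 erythroid and 12 stromal genes passed in either line. The summed intensity of the progenitor list was 6791 to 8649 after MigR1-Cre, against 10609 to 12359 after MigR1, in the Lef1F/F line, and 7970 to 8128 against 13186 to 14133 in the E2a-/- line. The groups did not overlap in either line. Nearly all of this lay in Mycn, a growth-promoting Myc family factor, which read 7353 and 5481 after MigR1-Cre, against 11049 and 9317 after MigR1, in the Lef1F/F line, and 6470.4 and 6639.7 against 12653 and 11713 in the E2a-/- line. Its log2 differences were -0.68 ± 0.14 (adjusted p = 0.238) and -0.89 ± 0.14 (adjusted p = 1.00), and without Mycn the sums were 1296 to 1310.2 against 1292 to 1309.8 and 1488 to 1499.6 against 1472 to 1480.3. For the myeloid, B cell, NK and innate lymphoid, erythroid and stromal lists, the mean sums with MigR1-Cre were 0.857 to 1.07 times those with MigR1. The part of Mycn in the members' values was not tested. The line values that follow are over all 8 arrays. Between the lines 1 progenitor gene, Kit, which encodes a growth factor receptor, was lower in the Lef1F/F line at -1.80. Cebpb and Irf8 of the myeloid list differed by 0.56 and -0.33. Pou2af1 and Blnk of the B cell list differed by 0.25 and -0.41, and Nfil3 of the NK list by 1.12. Of the erythroid list, Tfrc, Gata1 and Klf1 were lower in the Lef1F/F line, and of the stromal list Vim was higher by 4.59 and Col1a2 lower, at -3.87 on the log2 scale. Their part in the line differences of the members was not tested.

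The genes whose pattern over the 8 arrays was most like that of a member were found among 7393 genes with a mean of at least 200 units, with 7394 candidates for Spi1. Pearson's r is given as a description over arrays that fall into 2 lines. Ets1 was most like Arih1 at r = 0.998 and Tnfaip3 at 0.995, Ikzf3 like Necap2 at 0.993 and Bcor at 0.992, Myb like Mllt3 at 0.993 and Fbxl5 at 0.989, and Gfi1 like Ccdc93 at 0.992 and Cd24a at 0.986. Ikzf2 was most like H2-M3 at 0.986 and Comtd1 at 0.985. Bcl11b was most like Arrdc1 at 0.973 and Rfx5 at 0.972, Gata3 like Arl1 at 0.971 and Klhl26 at 0.970, Ikzf1 like Pank2 at 0.970 and Rmnd5a at 0.966, and Spi1 like Wnk1 at 0.968 and Slc25a45 at 0.915. Ikzf1 and Spi1 spanned only 1.13-fold and 1.08-fold over the 8 arrays and passed in no comparison, so their r rests on small gaps between arrays. Every r here was picked as 1 of the 2 highest among all candidates.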

How the data were processed

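Total RNA from sorted cells of 2 leukemia lines was hybridised to 8 Affymetrix mouse arrays, for which the series text and the methods name different versions; the probe sets are those of the version in the methods. RMAExpress, version not given here, was run by the authors for RMA normalisation, and the deposited table holds probe set intensity on a linear scale, with distributions made alike across arrays, which hides any shift in RNA content per cell. The number of arrays limits the precision. The study's own dChip comparison was not used.

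Groups came from sample titles, with which a label field for the retrovirus disagrees; it was not used. Arrays of a group are numbered in record order. Log2 was taken with no offset, and means of 4 groups were fitted to all 8 arrays with limma 3.58.1 in R 4.3.3 (lmFit and eBayes, 4 residual and 3.99 prior degrees of freedom). P-values are two-sided and adjusted (Benjamini-Hochberg) across the 45037 probe sets in each of 5 contrasts, with a threshold of 0.05. The script was tested on simulated data. An exact permutation of 2 against 2 arrays cannot go below p = 0.333.

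Names came from the platform annotation, in which 34945 probe sets have 1 gene symbol, 932 several and 9160 none. All probe sets with 1 member symbol were reported, and the brightest stands for the gene. In 9 accompanying lists the genes past the threshold with the largest changes were named, and for likeness the 2 best genes. Members and lists were chosen with earlier results of these data known. Some list entries are not reported here. Alternatives covered moderation, dim probe sets (the lowest 40% left out), an offset of 32, repeated quantile normalisation, array weights, the arrays fitted, a replicate block, the mean of a gene's probe sets and leaving out each array. Promoter windows are RefSeq's on GRCm38.p6.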

Additional observations from a re-analysis of the deposited data

How the results depend on the processing

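No member passed in either Cre comparison or in their difference under any alternative but 1. Numbering the Lef1F/F arrays in record order and fitting that number as a replicate block, an alternative prompted by earlier results, gave 1 member probe set (the second of Ikzf2, adjusted p = 0.0452) and 345 of all probe sets with Cre in the Lef1F/F line, 1 in the E2a-/- line, 86 for the difference of effects, 9595 and 14 members between lines in MigR1 arrays and 13830 over all arrays; Gata3 then passed over all arrays (adjusted p = 0.00140). The labels do not pair these arrays. Fitting only the arrays compared gave 0 and 1 probe sets with Cre in the Lef1F/F and E2a-/- lines and 5 members between lines in MigR1 arrays, array weights gave 46 with Cre in the Lef1F/F line, and the filter on dim probe sets gave 5 for the difference of effects. Leaving out 1 array gave 20 to 33 probe sets with Cre in the Lef1F/F line, 0 to 7 for the difference, 2267 to 5396 with 1 to 9 members between lines in MigR1 arrays, and 6070 to 10091 with 11 to 13 members over all arrays. Ets1 at its brightest probe set passed between lines in MigR1 arrays under 8 alternatives, most of them with the same value.

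Directions that changed belonged to log2 values that had not passed. As the mean of all probe sets, the difference of Cre effects was 0.0185 for Bcl11b and 0.0163 for Ikzf1, and the MigR1 line difference of Ikzf1 was -0.0016. Without 1 array, the Cre effect in the Lef1F/F line was -0.0811 to 0.0902 for Ikzf1, -0.462 to 0.0723 for Gata3 and -0.0202 to 0.161 for Ets1; in the E2a-/- line it was -0.0778 to 0.0031 for Gfi1, -0.0431 to 0.110 for Gata3, -0.0187 to 0.0838 for Ikzf1 and -0.0566 to 0.0029 for Myb; the difference was -0.0604 to 0.0358 for Bcl11b, -0.114 to 0.0576 for Ikzf1 and -0.496 to 0.0387 for Gata3; and the Ikzf1 line difference was -0.0298 to 0.0559 over all arrays and -0.0586 to 0.113 in MigR1 arrays. The cause was not tested.

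With 2 arrays a group, 1 line a genotype and 3′ probes, small changes, isoforms and protein levels cannot be judged, and intensities near the array median have compressed differences.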
